A study of Mus musculus with 768 samples.

Results

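The ADAMTS proteases described here were the 10 genes Adamts1, Adamts2, Adamts4, Adamts5, Adamts7, Adamts9, Adamts10, Adamts12, Adamts14 and Adamts15, found by symbol among 24490 genes. They were measured by Smart-seq2, a method that sequences full-length cDNA of single cells, in cancer-associated fibroblasts (CAFs) sorted as EpCAM-, CD45-, CD31- and NG2- cells from mammary tumors of 14-week-old FVB/N-Tg(MMTVPyVT)634Mul/J mice. In these mice the MMTV promoter drives the polyoma middle T oncogene in mammary epithelium, and no untreated or wild-type group was analysed here. Of 768 wells on 2 plates, 727 held at least 10000 reads outside the ERCC spike-ins. Each plate held the cells of 1 tumor. Replication is therefore by tumor (n = 2), and tumor and plate cannot be told apart.

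Cells were called vascular where Rgs5, a regulator of G-protein signaling found in pericytes, was above an RPKM (reads per kilobase of gene model, scaled to the reads of the well) of 185 and Dcn, the collagen-binding proteoglycan decorin, was not above 45.3. Matrix cells were the reverse. This gave 253 and 229 vascular wells in tumors 1 and 2, and 89 and 85 matrix wells. Another 25 wells were high for both genes and 46 for neither. The labels fitted their markers: the vascular wells held a median of 8 of 8 vascular markers and the matrix wells a median of 8 of 8 matrix markers, while Pecam1 and Cdh5, which define endothelial cells, had no read in vascular wells, and Ptprc, the pan-leukocyte gene, had none in either class. In matrix wells 15.5% held a read of at least 1 of 5 endothelial markers, with a mean summed RPKM of 5.77 in tumor 1 and 5.52 in tumor 2, where vascular wells had 0.00845 and 0.362, and 9.20% of matrix and 3.94% of vascular wells held a read of at least 1 of 5 immune markers, with a mean summed RPKM of 8.61 and 4.48 against 1.65 and 2.78. At least 1 of 5 epithelial markers was read in 31.0% of matrix and 18.05% of vascular wells (mean summed RPKM 8.53 and 16.9 against 3.23 and 32.5), and at least 1 of 8 markers of developmental CAFs in 76.4% and 56.6% (260 and 225 against 20.03 and 286). At least 4 of 8 vascular markers were read in 41.4% of matrix wells, and at least 4 of 8 matrix markers in 15.4% of vascular wells. The part of such reads in the results was not tested. Median depth was 202847 and 191893 reads in vascular wells and 274050 and 233504 in matrix wells.

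ADAMTS proteases are secreted zinc metalloproteinases whose thrombospondin-like repeats hold them to cells and to the extracellular matrix. Their pro-domain is cut off by furin-like convertases, for most members before secretion. Adamts1, Adamts4, Adamts5, Adamts9 and Adamts15 belong to the proteoglycanases, which cut versican and aggrecan. Adamts2 and Adamts14 remove the N-propeptide of fibrillar procollagens, Adamts7 and Adamts12 cut cartilage oligomeric matrix protein, and Adamts10 binds fibrillin and takes part in microfibril assembly. In stroma these enzymes are known for turning over the versican-rich matrix and for maturing collagen.

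RefSeq promoters of GRCm38.p6 were at hand for 5 of the 10 members, and 3 are shown, the 250 bases before the gene start. Adamts2 and Adamts14 share the procollagen role and had higher values in matrix cells, though Adamts14 missed the main threshold given below. Adamts1 had like levels in both classes. Capitals mark matches on either strand to the GC box, spelled GGGCGG, or the TATA box, spelled TATAAA.
Adamts2, chr11:50601835-50602084, plus strand: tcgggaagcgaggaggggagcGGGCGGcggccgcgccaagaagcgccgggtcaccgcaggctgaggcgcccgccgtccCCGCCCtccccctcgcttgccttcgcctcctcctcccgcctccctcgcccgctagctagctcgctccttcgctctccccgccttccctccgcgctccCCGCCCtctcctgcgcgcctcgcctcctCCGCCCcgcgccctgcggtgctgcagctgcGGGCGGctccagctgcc
Adamts14, chr10:61273420-61273669, minus strand: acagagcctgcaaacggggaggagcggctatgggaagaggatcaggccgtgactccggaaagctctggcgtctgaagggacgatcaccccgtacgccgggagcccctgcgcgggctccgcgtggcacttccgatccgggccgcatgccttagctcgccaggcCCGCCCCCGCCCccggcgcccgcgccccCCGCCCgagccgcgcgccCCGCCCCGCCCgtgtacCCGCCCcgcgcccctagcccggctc
Adamts1, chr16:85803114-85803363, minus strand: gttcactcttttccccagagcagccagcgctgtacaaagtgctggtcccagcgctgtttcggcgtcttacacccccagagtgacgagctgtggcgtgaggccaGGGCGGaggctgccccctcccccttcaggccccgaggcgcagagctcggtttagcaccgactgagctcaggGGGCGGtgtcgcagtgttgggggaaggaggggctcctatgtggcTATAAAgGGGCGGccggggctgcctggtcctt
The GC box occurred 5 times in the Adamts2 window, 6 times for Adamts14, where neighbouring matches overlapped, and 3 times for Adamts1. Of the members at hand but not shown, Adamts9 had 1 match and Adamts12 had 0. The GC box was found in 32.9% of 27025 promoters of this length. The Adamts1 window alone of the 3 held the TATA box, which 12.97% of the promoters held. None of the 3 held the letters CCAAT, found in 34.5% of promoters, or the AP-1 site TGANTCA, found in 6.87%. These matches are letters in a window and do not show binding.

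Adamts2 was by far the most abundant member per length in both classes. Its mean RPKM was 110 in tumor 1 and 105 in tumor 2 for vascular cells, and 228 and 211 for matrix cells. It made up 41.0% and 44.7% of the summed RPKM of the 10 members in vascular cells and 53.3% and 60.0% in matrix cells. In vascular cells Adamts1 (57.4 and 44.6 RPKM) and Adamts4 (44.1 and 44.9 RPKM) came next, and their ranges over the tumors overlapped. Adamts12 followed with 20.3 and 11.7 RPKM. Below it lay Adamts7 at 10.1 and 8.57 RPKM, Adamts10 at 8.73 and 6.96 RPKM, Adamts9 at 5.95 and 5.38 RPKM, Adamts5 at 4.68 and 4.39 RPKM and Adamts15 at 5.00 and 2.80 RPKM. Of these 5, the neighbours Adamts7 and Adamts10, and Adamts5 and Adamts15, had overlapping ranges. Adamts14 was lowest, with 1.40 and 0.779 RPKM.

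In matrix cells Adamts5 stood higher in the order. Adamts1 (53.5 and 39.5 RPKM) came after Adamts2, followed by Adamts5 (37.3 and 26.9 RPKM) and Adamts4 (38.3 and 23.7 RPKM), whose ranges overlapped. Adamts7 had 23.05 and 18.3 RPKM, and Adamts12, Adamts15 and Adamts10 lay between 5.70 and 18.7 RPKM. Adamts14 had 4.37 and 3.69 RPKM, and Adamts9, with 2.48 and 3.12 RPKM, was the lowest member in matrix cells. In the plot of mean RPKM, the lines of Adamts5 cross those of Adamts12, Adamts7, Adamts10 and Adamts9 in both tumors, that of Adamts15 in tumor 1 and that of Adamts4 in tumor 2.

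**Figure D1:**
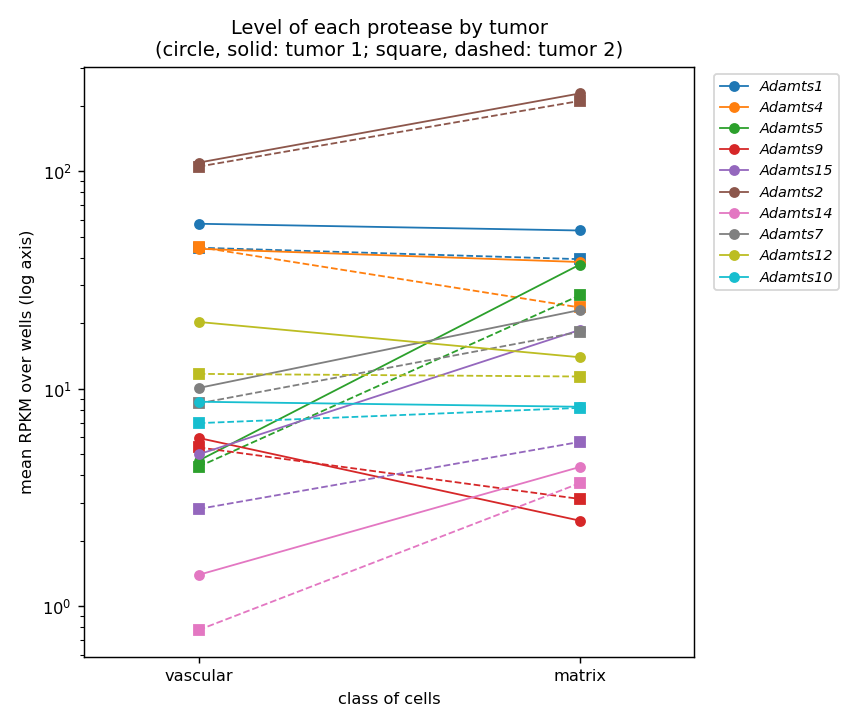
Mean RPKM over wells (log axis) of the 10 proteases in vascular and matrix cells, with a solid line and circles for tumor 1 and a dashed line and squares for tumor 2. Adamts2 is the top line on both sides, and Adamts5 climbs from 4.68 and 4.39 RPKM in vascular cells to 37.3 and 26.9 RPKM in matrix cells.

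Of the 10 proteases 3, Adamts5, Adamts7 and Adamts2, were called higher in matrix than in vascular cells, and none was called higher in vascular cells. Each of the 10 reached the filter, a mean RPKM of 1, in both classes. Counts were summed per tumor and class and tested with edgeR's quasi-likelihood test, Benjamini-Hochberg adjusted over 11585 genes, with a call at an adjusted p of 0.05. Over the genes tested 16.5% were called, 9.85% higher in matrix and 6.68% higher in vascular cells. With the tumor as a block 18.3% were called, 10.9% higher in matrix and 7.41% higher in vascular cells. That fit called 5 of the 10 members, with Adamts14 and Adamts15 too, all higher in matrix cells. At an adjusted p of 0.001, where 1.89% of the genes were called and 1.38% higher in matrix cells, no member was called without the block. With the block Adamts5 alone of the members passed 0.001 (adjusted p = 0.000737), beside 1.95% of the genes. Without it 5 members had an unadjusted p under 0.05, as had 30.1% of the genes. Levels below are in CPM, a gene's share of its library's reads as scaled by TMM, edgeR's correction for library composition. The common base of these folds matters, since scaling to the ERCC spike-ins instead moved the median log2 fold change of all genes from -0.03 to 0.60, and library totals without TMM moved it to -0.32. The matrix wells gave less of their reads to the spike-ins, a median of 6.39% and 6.23% against 14.4% and 12.5% in vascular wells.

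Among the proteoglycanases Adamts5, an aggrecanase and versicanase, had the largest difference of the 10 members. It had 44.4 and 35.7 CPM in the vascular libraries of tumors 1 and 2, and 355 and 272 in the matrix libraries. Both matrix libraries lay far above both vascular libraries. The fold change was 7.82 (log2 2.97, SE 0.23, n = 2 tumors, edgeR adjusted p = 0.00114). Single cells showed the same direction: 24.1% (95% exact binomial interval 18.97 to 29.9) and 21.4% (16.3 to 27.3) of vascular wells had a read of Adamts5, against 78.7% (68.7 to 86.6) and 62.4% (51.2 to 72.6) of matrix wells. Such intervals cover counting error only, as the wells of a tumor are not replicates. Reads carry no molecular identifiers. Thinning drew 50000 reads from each well that had at least that many, and shallower wells were left out, here and below. After thinning, the shares were 20.7% and 17.5% of 246 and 217 vascular wells. In 82 and 81 matrix wells they were 75.6% and 63.0%. Where it was read, its median RPKM was also higher in matrix wells, at 33.4 and 29.9 against 8.97 and 7.57. The gene lies at chr16:85858157-85901125 in GRCm38.p6, on the minus strand.

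Adamts15, another versicanase, had 30.3 and 12.9 CPM in vascular and 134 and 47.3 in matrix libraries. The matrix libraries were above both vascular libraries, a pattern that 29.2% of all genes tested had, but the tumors differed by more than 2-fold within each class. The difference (log2 2.07, SE 0.63) missed the threshold with edgeR (adjusted p = 0.0847) and passed it with the tumor as a block (log2 2.01, SE 0.21, adjusted p = 0.00399). Of the wells, 17.8% and 10.5% of vascular and 37.1% and 27.1% of matrix cells had a read. A single well gave 20.8% and 19.3% of the Adamts15 reads of the matrix libraries.

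For Adamts1, Adamts4 and Adamts9 no difference was called. Adamts1, a versicanase first described in inflammation, had 318 and 246 CPM in vascular and 328 and 229 in matrix libraries. Its ranges overlapped almost fully, and the log2 fold change of -0.02 had a 95% interval of -0.62 to 0.58 (edgeR adjusted p = 0.974). Adamts4, an aggrecanase, had 187 and 186 against 192 and 118 (log2 -0.26, interval -0.91 to 0.38, adjusted p = 0.569). The single low value was the matrix library of tumor 2. In mean RPKM both matrix values of Adamts4 (38.3 and 23.7) lay below both vascular ones (44.1 and 44.9). Adamts9, a versicanase that also acts at the cell surface and in the secretory pathway, had 33.4 and 27.8 against 22.1 and 22.8 CPM. In CPM it was the only member with both matrix libraries below both vascular ones. That difference was not called (log2 -0.45, interval -1.09 to 0.20, adjusted p = 0.322), and 31.2% of all genes tested had such a pattern in CPM. Exons of A730049H05Rik and Gm15737 on the other strand overlap 1381 and 424 of its 15048 exon bases in GENCODE vM21. With ERCC scaling the log2 values of Adamts1, Adamts4 and Adamts9 turned positive (0.62, 0.36 and 0.19) and none was called.

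Of the procollagen N-proteinases, Adamts2 (chr11:50602085-50807573) had 905 and 817 CPM in vascular and 1962 and 1801 in matrix libraries. The libraries of a class lay close together, and the fold change was 2.19 (log2 1.13, SE 0.16, edgeR adjusted p = 0.00739). Nearly all cells had a read of Adamts2, 97.2% and 96.1% of vascular and 98.9% and 98.8% of matrix wells, so the classes differed in how much a cell held. Its median RPKM in wells with a read was 104 and 94.3 against 190 and 184. Adamts14 was rare, with 9.18 and 3.90 against 27.4 and 21.2 CPM. Both matrix libraries were above (log2 1.89, SE 0.51), at an edgeR adjusted p of 0.0636, and of 0.0333 with the tumor as a block. It differed in the share of cells, 7.51% and 6.99% of vascular against 32.6% and 30.6% of matrix wells, while in wells with a read its median RPKM was 13.7 and 9.98 in vascular and 10.7 and 7.66 in matrix cells. Thinning to 50000 reads gave 6.91% and 5.53% against 29.3% and 23.5%.

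Adamts7 and Adamts12, which share the cartilage oligomeric matrix protein substrate, differed from each other in their values. Adamts7 (chr9:90162904-90200102) had 58.7 and 48.5 CPM in vascular and 149 and 132 in matrix libraries, a fold change of 2.63 (log2 1.39, SE 0.19, edgeR adjusted p = 0.00735). It was read in 39.9% and 36.2% of vascular and 79.8% and 75.3% of matrix wells. In GENCODE vM21, 122 of the 6282 exon bases of Adamts7 overlap exons of Tbc1d2b on the other strand. Tbc1d2b was itself higher in matrix cells (log2 2.03, SE 0.22, adjusted p = 0.00295), and as Smart-seq2 does not mark the strand, reads in these bases cannot be told apart. Adamts12 had 141 and 69.4 against 107 and 80.6 CPM. Its vascular values differed by 2-fold between the tumors and enclosed the matrix values (log2 -0.17, interval -1.08 to 0.75, adjusted p = 0.813, and 0.48 with ERCC scaling).

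Adamts10, the fibrillin-binding member, was read in more matrix than vascular cells without a called difference in its reads. Matrix wells held reads of more genes of any kind, a median of 5631 and 5525 against 4040 and 4163 in vascular wells. For Adamts10 the shares were 29.2% and 24.5% of vascular and 58.4% and 54.1% of matrix wells. After thinning they were 27.2% and 21.2% against 54.9% and 50.6%. In wells with a read the order was the other way round, with a median RPKM of 19.2 and 16.4 in vascular and 12.9 and 11.1 in matrix cells. The summed libraries held 37.7 and 24.5 CPM for vascular and 43.7 and 38.4 for matrix cells (log2 0.40, interval -0.34 to 1.14, adjusted p = 0.437). The mean RPKM was 8.73 and 6.96 against 8.27 and 8.18. With ERCC scaling Adamts10 was called higher in matrix cells (log2 1.04, edgeR adjusted p = 0.0403).

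**Figure D2:**
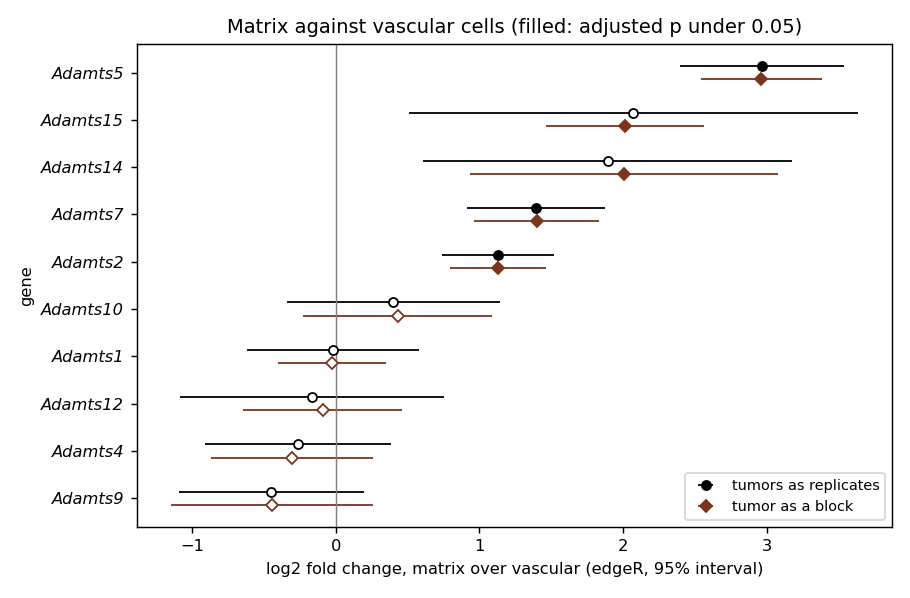
log2 fold change of each protease, matrix over vascular, with its 95% interval from edgeR, without a block (black circles) and with the tumor as a block (brown diamonds). Filled symbols have an adjusted p under 0.05. Adamts5, Adamts7 and Adamts2 are filled in both fits, and Adamts15 and Adamts14 are filled with the block alone.

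**Figure D3:**
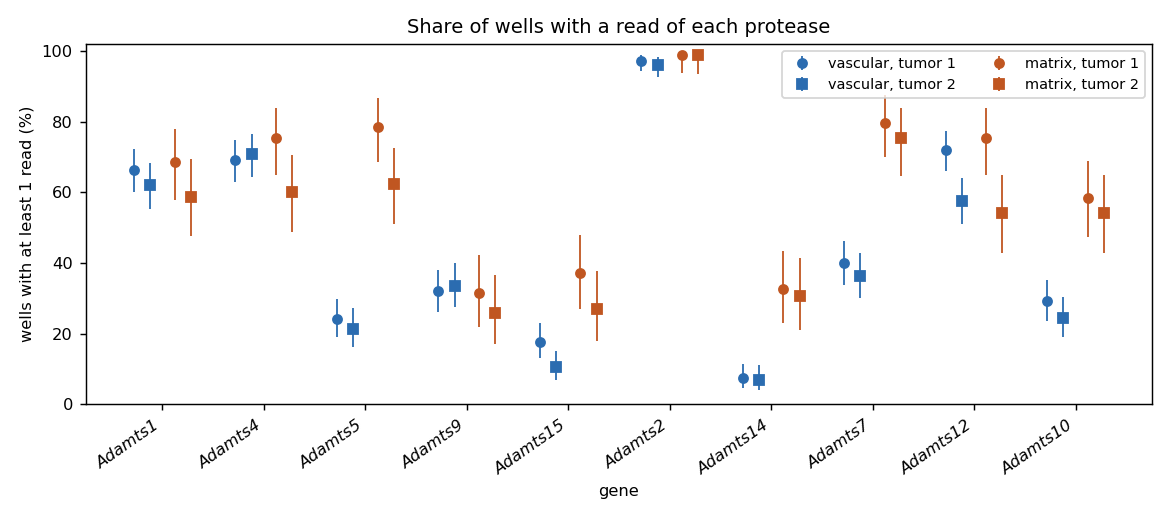
Percent of wells with at least 1 read of each protease in vascular (blue) and matrix (orange) cells, per tumor, with 95% exact binomial intervals. Matrix cells are above vascular cells in both tumors for Adamts5, Adamts15, Adamts2, Adamts14, Adamts7 and Adamts10. Within each tumor the Adamts2 intervals overlap. Matrix wells held reads of more genes of any kind, a median of 5631 and 5525 against 4040 and 4163 in vascular wells.

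**Figure D4:**
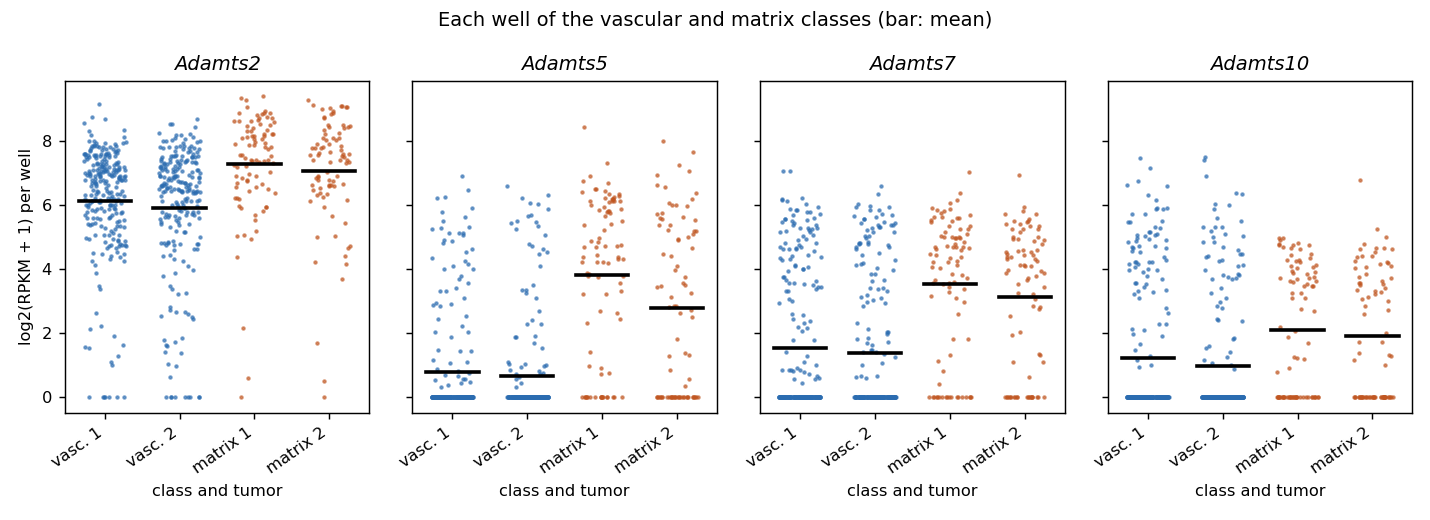
log2(RPKM + 1) of 4 proteases in each vascular and matrix well of tumors 1 and 2, with a bar at the mean. Nearly every well holds Adamts2, while Adamts5, Adamts7 and Adamts10 split into wells at 0 and wells with a read, and fewer matrix wells lie at 0.

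A matrix cell carried more different members than a vascular cell, and also more genes of any kind. The mean number of the 10 members with a read was 4.55 and 4.20 per vascular well and 6.36 and 5.47 per matrix well, and 4.21 and 3.79 against 6.12 and 5.14 after thinning to 50000 reads. The median number of all genes with a read was 4040 and 4163 per vascular well and 5631 and 5525 per matrix well. Every vascular and matrix well had at least 1 member, and 8 was the most in a vascular well and 10 in a matrix well.

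Adamts1 and Adamts5, which are neighbours on chromosome 16, were often read in the same matrix cells. They lie 55.0 kb apart (Adamts1 at chr16:85793827-85803113) with 1 annotated non-coding gene between them. In matrix wells with an Adamts5 read, 77.1% in tumor 1 and 71.7% in tumor 2 also had an Adamts1 read, against 36.8% and 37.5% of matrix wells without Adamts5. In vascular wells the shares were 68.9% and 79.6% with Adamts5 and 65.6% and 57.2% without. Over matrix wells the Spearman correlation of log2(RPKM + 1) was 0.42 (89 wells) and 0.49 (85 wells). Of 7436 genes read in at least 25% of matrix cells in both tumors, Adamts5 was the gene most like Adamts1 and Adamts1 the gene most like Adamts5, where likeness is the lower of the tumors' correlations. Wells of a tumor share a plate, and these correlations are a description.

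**Figure D5:**
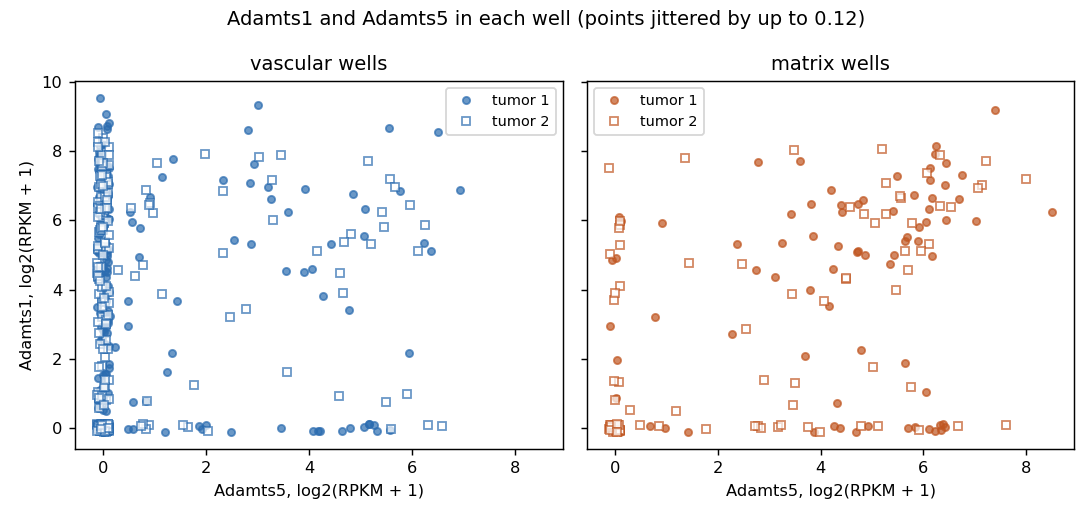
Adamts1 against Adamts5, both as log2(RPKM + 1), in each vascular well (left) and matrix well (right), with filled circles for tumor 1 and open squares for tumor 2. Matrix wells fill the upper right, where 54 wells of tumor 1 and 38 of tumor 2 hold both genes, while most vascular wells lie at 0 for Adamts5.

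Other pairs of members were less alike. In matrix cells the pair Adamts7 and Adamts9 came next, at 0.20 and 0.30, followed by Adamts7 and Adamts12, at 0.19 and 0.45, and among the 6 members read in at least 25% of vascular cells in both tumors the highest pair was Adamts4 and Adamts7, at 0.13 and 0.12. In vascular cells Adamts2 went with Fbn1 (0.44 and 0.45), which encodes fibrillin, Igfbp7 (0.44 and 0.42), an IGF-binding protein of vessels, and Col1a1 (0.42 and 0.53), a collagen chain whose N-propeptide Adamts2 removes. In matrix cells it went with Pla1a (0.48 and 0.56), Spon1 (0.47 and 0.65) and Ctsk (0.48 and 0.46), the last a collagen-degrading cathepsin. In vascular cells Adamts12 went with Myl9 (0.29 and 0.31), Cav2 (0.31 and 0.29) and Tagln (0.28 and 0.27). In matrix cells it went with Lrrc15 (0.43 and 0.42), a marker of activated CAFs, Akr1b8 (0.39 and 0.42) and Col12a1 (0.39 and 0.38). Adamts7 in matrix cells went with Col6a1 (0.42 and 0.50), Bace1 (0.41 and 0.49) and Col6a2 (0.38 and 0.44).

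The nearest genes of the remaining members were more mixed. In matrix cells Adamts1 also went with Camk1 and Runx1t1, and Adamts5 with Tgfbr3, a TGF-beta co-receptor, and Fmo1. Adamts4 went with Src, Fam96a and Kctd10, Adamts9 with Cacna1g, Mdk and Col6a1, and Adamts15 with Metrnl, Tgfbr3 and Tnfaip6, a hyaluronan-binding protein. Adamts10 went with Prrx2, Fbxw11 and Fpgs, and Adamts14 with Sept9, Smim4 and Akt1s1 at a likeness of at most 0.26. In vascular cells Adamts1 went with Gadd45g, Klf6 and Fhl2, Adamts4 with Apold1, Bmp1 and Postn, Adamts7 with Bicd2, Bmp1 and Postn, and Adamts9 with Pitpnb, C1qbp and Pcna, the last group at 0.18 or less. The correlations with the reads of a well, a depth these points share, ran from 0.042 to 0.33 over the members in vascular cells, the highest being Adamts2 (0.33 and 0.21). In matrix cells they ran from 0.0096 to 0.41, with 0.34 and 0.32 for Adamts4 and 0.16 and 0.41 for Adamts7, so for these members they were of the size of some likeness values. Adamts1 also went with the mean of 12 immediate early genes, which rise in handled cells, at 0.38 and 0.18 in vascular and 0.29 and 0.12 in matrix cells. Adamts4 did so too, at 0.28 and 0.15 in vascular and 0.33 and 0.15 in matrix cells, and Adamts10 had 0.32 and 0.096 in matrix cells. The part of handling was not tested.

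Of 9 other ADAMTS proteases 4 passed the filter of a mean RPKM of 1, and 2 were called, both higher in matrix cells, where 9.85% of all genes were. Adamts16 had 0.458 and 0.0196 CPM in vascular libraries (26 reads and 1 read) and 55.8 and 37.5 in matrix libraries (log2 7.56, SE 1.08, adjusted p = 0.00816), and was read in 23.6% and 22.4% of matrix wells. Adamts6 and Adamts16 passed the filter only through the matrix wells, with a mean RPKM of 0.234 and 0.26 (Adamts6) and of 0.0834 and 0.0024 (Adamts16) in vascular cells, so a gene kept in this way had to differ and its call adds nothing to these values. Adamts6, a relative of Adamts10, had a log2 fold change of 2.79 (SE 0.61, adjusted p = 0.0341). Adamts17, which passed the filter only through the vascular wells, had 11.6 and 25.1 against 1.29 and 4.19 CPM, with an adjusted p of 0.0638, and of 0.0175 with the tumor as a block. Adamts8 was read in 16.2% and 14.8% of vascular and 24.7% and 27.1% of matrix wells, and was not called (log2 0.62, SE 0.38, adjusted p = 0.352). Adamts8 and Adamts17 were named after their values were seen. Adamts13 and Adamts18 had no read in either class, so that up to 1.19% and 1.31% of vascular and up to 3.37% and 3.53% of matrix cells could hold a read (3 counts of the total). Of 7 ADAMTS-like proteins, which lack the protease domain, 5 were tested and Adamtsl1 (log2 2.25, SE 0.29, adjusted p = 0.00607) and Adamtsl5 (log2 1.25, SE 0.22, adjusted p = 0.0161) were called, both higher in matrix cells, beside the same 9.85% of all genes. Adamtsl5 was read in 44.7% and 40.6% of vascular and 80.9% and 64.7% of matrix wells, and Adamtsl1 in 10.7% and 11.4% of vascular and 61.8% and 48.2% of matrix wells.

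Substrates of the proteases were higher in matrix cells in most cases tested. Of 17 listed substrates and partners 11 were tested, 8 were called higher in matrix cells (9 with the tumor as a block) and 0 higher in vascular cells, beside 9.85% (10.9%) and 6.68% (7.41%) of all genes, with a median log2 fold change of 1.90 against -0.03 over all genes. The same median over the 10 proteases was 0.76. Vcan, which encodes versican, had 32.2 and 78.4 CPM in vascular and 604 and 617 in matrix libraries (log2 3.46, SE 0.45, adjusted p = 0.00572). Fbn2 (log2 3.12, SE 0.17, adjusted p = 0.000413) and Col1a1 (log2 3.08, SE 0.22, adjusted p = 0.000931) were also higher. Acan and Comp, which encode aggrecan and cartilage oligomeric matrix protein, were below the filter, and several listed genes are typical of the fibroblasts that high Dcn selects.

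Of 7 genes for inhibitors and clearance 5 were tested and 4 were called, all higher in matrix cells, where 9.85% of all genes were. Lrp1, the receptor through which Adamts4 and Adamts5 are taken up, had 347 and 425 against 1609 and 2072 CPM (log2 2.25, SE 0.21, adjusted p = 0.00206). Timp1 (log2 1.94, SE 0.20, adjusted p = 0.00282) and Fn1 (log2 1.80, SE 0.30, adjusted p = 0.0143), which encodes fibronectin, were higher too. Timp3, the main tissue inhibitor of the aggrecanases, had 1271 and 1118 against 1233 and 1108 CPM (log2 -0.03, SE 0.16, adjusted p = 0.933). Of 7 genes for processing and glycosylation 6 were tested and 2 called, both higher in matrix cells, beside 9.85% of all genes. These were Pcsk5 (log2 6.55, SE 0.62, adjusted p = 0.00215), a convertase, and Sdc4 (log2 1.00, SE 0.22, adjusted p = 0.0329), a syndecan. Pcsk5 had 7.14 and 2.23 against 449 and 433 CPM and passed the filter only through the matrix wells (mean RPKM 0.773 in vascular cells), so that its call adds nothing to these values. Of 12 immediate early genes 1 was called, Ier2 (log2 0.86, SE 0.16, adjusted p = 0.018), and 3 with the tumor as a block, all higher in matrix cells, beside 9.85% of all genes without the block and 10.9% with it.

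The members were read in fewer cells of tumor 2. In matrix wells the share was lower in tumor 2 for 10 of 10 members, before and after thinning. Of 11556 other genes read in at least 5% of these wells, 59.9% were lower in tumor 2. Adamts2 hardly differed, with a read in 88 of 89 and 84 of 85 matrix wells. The mean log2(RPKM + 1) in matrix wells was lower for 9 of 10 members. In vascular wells the share was lower for 8 of 10, against 42.2% of 10755 other genes. The widest gaps in matrix cells were those of Adamts12, at 75.3% and 54.1%, Adamts5, at 78.7% and 62.4%, and Adamts4, at 75.3% and 60.0%. With 1 tumor on each plate this is not tested.

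With edgeR no member was called between cycling and other vascular cells. Cycling cells, those with a read of at least 4 of 8 cycling markers, were 23 and 22 of the vascular wells, and edgeR called 0 of 10 members beside 1.73% of 11186 genes, and 0 with the tumor as a block beside 2.13%. Adamts15 alone had an unadjusted p under 0.05 (log2 -3.48, SE 1.22, adjusted p = 0.277), with a read in 2 and 1 cycling wells against 43 of 230 and 23 of 207 other wells. DESeq2 called Adamts15 (adjusted p = 0.0313) beside 8.04% of genes. Adamts5 went in opposite directions in the tumors, with a read in 12 of 23 cycling wells of tumor 1 and in 1 of 22 of tumor 2, against 21.3% and 23.2% of the other vascular wells. Adamts2 was read in all 23 and 22 cycling wells, and its log2 difference was 0.10 (SE 0.18, adjusted p = 0.861).

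The 46 wells high for neither Rgs5 nor Dcn held few members, a mean of 2.63 and 2.93 per well. These wells were shallower, with a median of 137044 and 111736 reads, and 47.8% of them held at least 4 of 8 markers of developmental CAFs. At least 1 of 5 epithelial markers was read in 54.3% of them, with a mean summed RPKM of 636 in tumor 1 and 180 in tumor 2, and the part of either kind of cell in the values was not tested. Thinning kept only the 12 and 19 of these wells with at least 50000 reads. In those, Adamts12 was read in 16.7% and 10.5% and Adamts2 in 75.0% and 63.2%. Without thinning, Adamts14 had no read in the 16 wells of tumor 1, where up to 18.8% could hold one. It had a read in 2 of 30 wells of tumor 2. In the 12 and 19 thinned wells, Adamts7 was read in 41.7% and 57.9%, against 33.7% and 31.3% of thinned vascular wells. Adamts10 was read in 25.0% and 31.6% against 27.2% and 21.2%. No test was made of these wells.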

How the data were processed

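The authors aligned the reads with STAR to mm10 and, with RefSeq gene models, deposited a count of reads for each gene and well. Smart-seq2 libraries do not mark the strand. The deposited RPKM table was computed by the authors with rpkmforgenes. Both tables hold 768 wells, and 0 columns were left unused. The members and all gene lists were chosen with earlier results of these data known.

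Cuts on Rgs5 and Dcn were the midpoints of a 2-means split of log2(RPKM + 1), with 12 and 16 wells within 1 log2 unit. Counts were summed per tumor and class into 4 libraries of 20124173 to 52623094 reads. Apart from Rgs5 and Dcn, genes whose mean RPKM reached 1 were tested with edgeR 4.0.16 (TMM, glmQLFit, glmQLFTest, adjusted p of 0.05). On simulated data for matrix against vascular cells with 11556 genes, it called 3 of 66 genes changed by 1 log2 unit, 47 of 67 by 2, 66 of 67 by 3 and 8 of 11356 unchanged genes. The simulated libraries all started from the vascular means, with the same dispersion (0.117) for every gene and no tumor effect. The real data differ in this, so these counts need not hold for them. As 1 animal gave both libraries of a tumor they are paired, and their deviations from the class means correlated by 0.17 over 11585 genes. Alternatives were the tumor as a replicate block, DESeq2 1.42.0, DESeq2's size factors, ERCC totals, no filter, equal weight per cell, deeper wells, other cuts, no cycling cells, an adjusted p of 0.001, each tumor left out and, chosen after seeing the data, totals without TMM and each library without its top well. All members are named, and from lists the 3 called genes of largest change in each direction, plus Vcan, Timp3 and Lrp1. For likeness, the 3 genes nearest a member were named, among genes read in at least 25% of the cells. Promoters came from RefSeq (GRCm38.p6) and exon overlaps from GENCODE vM21, of which one is not reported here. Doublets were not called.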

Additional observations from a re-analysis of the deposited data

Results flagged for a closer look

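For 3 members the TMM-scaled log2 ratio of matrix over vascular cells had opposite signs in the tumors, a difference that was not tested since each tumor gives 1 library per class. Adamts4 was at 0.045 in tumor 1 and -0.65 in tumor 2. Adamts12 was at -0.40 in tumor 1 and 0.22 in tumor 2. Adamts1 was at 0.044 in tumor 1 and -0.10 in tumor 2, both near 0.

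The 41 wells with fewer than 10000 reads, which entered no comparison, held reads of members above the share that a count of 0 allows (7.32%). Adamts2 was read in 43.9% of them (18 wells) and Adamts1 in 14.6% (6 wells), with at most 12 and 18 reads in a well. Adamts15 was read in 2 of these wells, and 65 of its 66 reads came from a single well at 1122 RPKM.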

How the results depend on the processing

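Adamts5, Adamts7 and Adamts2 were called higher in matrix cells under each of the 11 other fits, with log2 ranges of 2.68 to 3.60, 1.11 to 2.03 and 0.84 to 1.76. The count of called members, all higher in matrix cells, was 5 with the tumor as a replicate block, 5 with DESeq2, 5 without the filter on genes (each time with Adamts14 and Adamts15), 6 with ERCC totals (with Adamts10 too) and 0 at an adjusted p of 0.001. At 0.001 Adamts5 passed with the block, with ERCC totals, without the filter and with a cut at an RPKM of 100, and DESeq2 passed Adamts5, Adamts2 and Adamts7. At 0.05 the count stayed 3 or 4 under the other settings. At 0.05 the replicate block changed no other call among members. Over all genes 1915 were called (1141 higher in matrix, 774 in vascular cells), against 3004 (1311 higher in vascular) with DESeq2, 3656 (3136 higher in matrix) with ERCC totals, 1336 higher in vascular without TMM, and 219 (160 and 59) at 0.001. Between cycling and other vascular cells DESeq2 called 1 member against 0. The sign turned only in members that were not called. With ERCC totals the log2 fold changes of Adamts1, Adamts4, Adamts9 and Adamts12 were 0.62, 0.36, 0.19 and 0.48. Adamts1 was at 0.057 with equal weight per cell and at 0.0058 with classes by the larger of Rgs5 and Dcn. With each tumor left out the log2 values ran from -0.10 to 0.044 for Adamts1, -0.65 to 0.045 for Adamts4 and -0.40 to 0.22 for Adamts12, and the mean log2(RPKM + 1) differences from -0.23 to 0.35, -0.94 to 0.11 and -0.22 to 0.024, the last being 0.0097 in wells of at least 50000 reads. The causes were not tested. Without the top well of each library Adamts9 was at -0.67 and Adamts15 at 1.93. With 2 tumors, a difference that was not called is not shown to be absent.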
